A study of Homo sapiens with 4 samples.

Results

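The mRNAs of 10 proteins that build small nucleolar ribonucleoproteins (snoRNPs) or hold them in the nucleolus were followed after knock-down of MYCN. They were FBL, NOP56 and NOP58 of the box C/D core, DKC1, NHP2, NOP10 and GAR1 of the box H/ACA core, and the nucleolar scaffolds NOLC1, TCOF1 and NCL. The genes were chosen by symbol, which gave 10 of the 26364 genes listed, and all 10 were expressed above the minimum for testing, as were 11411 genes in all. BE(2)C is a human neuroblastoma cell line with amplified MYCN, a single line that stands for no other tumor. In 2 Ctrl samples the cells received a non-targeting siRNA, and in 2 MYCN KD samples an siRNA to MYCN. Per the labels both groups were exposed to 80 nM siRNA with Lipofectamine 2000 for 6 h, and total RNA was taken the next day, whereas the methods of the paper give a lower final siRNA concentration. The labels do not say that replicates came from separate cultures, so p-values measure the spread between these samples only, which may be technical.

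The nucleolus is where ribosomal RNA is made, modified and folded with ribosomal proteins. Box C/D snoRNPs place methyl groups on the ribose of rRNA at positions chosen by their guide snoRNA, and FBL is their methyltransferase. Box H/ACA snoRNPs turn uridines into pseudouridines, with DKC1 as the catalytic subunit, and the same 4 proteins bind the RNA of telomerase. NOLC1 and TCOF1 are long, heavily phosphorylated proteins that contact snoRNPs and RNA polymerase I, and NCL is an abundant RNA-binding protein of the nucleolus. MYC proteins are known to drive ribosome production, and their preferred binding sequence is the E-box.

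Several of these genes carry snoRNA genes in their introns, so that 1 primary transcript gives both a snoRNP protein and a guide RNA. Of 13 snoRNA genes in introns of NOP56, NOP58, DKC1 and NCL, 3 are printed here to show what the host transcripts release, and their values follow further on. They are given from 5′ to 3′ on the strand of the host gene in GRCh37. Capitals mark the box C core (TGATGA) and box D (CTGA) of the C/D type, or the ACA box near the end of the H/ACA type.
SNORD110, intron 3 of NOP56, chr20:2634858-2634932, plus strand: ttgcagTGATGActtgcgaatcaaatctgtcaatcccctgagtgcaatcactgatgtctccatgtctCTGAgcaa
SNORA51, intron 5 of NOP56, chr20:2635713-2635844, plus strand: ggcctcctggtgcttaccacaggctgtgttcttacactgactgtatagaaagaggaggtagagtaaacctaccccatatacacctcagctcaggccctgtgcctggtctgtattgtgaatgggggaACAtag
SNORD20, intron 11 of NCL, chr2:232321155-232321234, minus strand: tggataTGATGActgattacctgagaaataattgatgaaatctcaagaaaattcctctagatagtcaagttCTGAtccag

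Expression is given as RPKM, reads scaled to the length of the gene and the size of the library, which the authors computed after removing unwanted variation. The reads behind the values, recovered from the RPKM steps, came to 29055819 to 34142988 per sample. Each of the 10 genes had 603 to 56884 reads in each sample, a counting error of 0.419% to 4.07%. This error takes normalized numbers as plain counts. The targeted gene checked the labels, since MYCN had 1067.9 and 1073.0 RPKM in Ctrl against 720.2 and 718.0 in MYCN KD (log2 fold change −0.57, SE 0.029, adjusted p = 0.00361 by limma). After quantile normalization the log2 fold change of MYCN was −0.38. All 8 noradrenergic neuroblastoma markers were expressed, with summed RPKM of 1251 to 1353 in Ctrl and 1988 to 2163 in MYCN KD. They did not move together, with 4 higher and 2 lower past the threshold. The highest value of any leukocyte marker was 0.0413 RPKM and of any endothelial marker 0.525. Of 5 fibroblast markers, 3 had a mean RPKM of at least 1, and their summed level was 12.6 to 15.0 in Ctrl and 16.7 to 19.6 in MYCN KD. Of 4 epithelial markers none had a mean RPKM of at least 1, and the sums were 1.02 to 1.07 and 1.97 to 2.04. The part of these marker levels in the results was not tested.

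The mRNA of 9 of the 10 genes was lower in MYCN KD past the threshold, an adjusted p under 0.05 by limma on log2(RPKM + 1). The falls ranged from 0.59 (NOP58) to 1.31 (NOLC1) on the log2 scale. The exception was NOP10, a small subunit of the H/ACA core, at a log2 fold change of −0.20 (adjusted p = 0.133). Among all 11411 genes, 22.8% were lower and 25.3% were higher past the same threshold. Both MYCN KD values lay below both Ctrl values for all 10 genes, which held for 35.8% of all genes. The median log2 fold change was −0.98 for the 10 genes and 0.03 for all tested genes. NOLC1, DKC1, NOP56, NCL and TCOF1, 5 of the 10, fell by more than 2-fold in mean RPKM, as did 276 genes in all (2.42%). In bulk RNA, fewer cells of a type and less RNA per cell cannot be told apart.

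**Figure D1:**
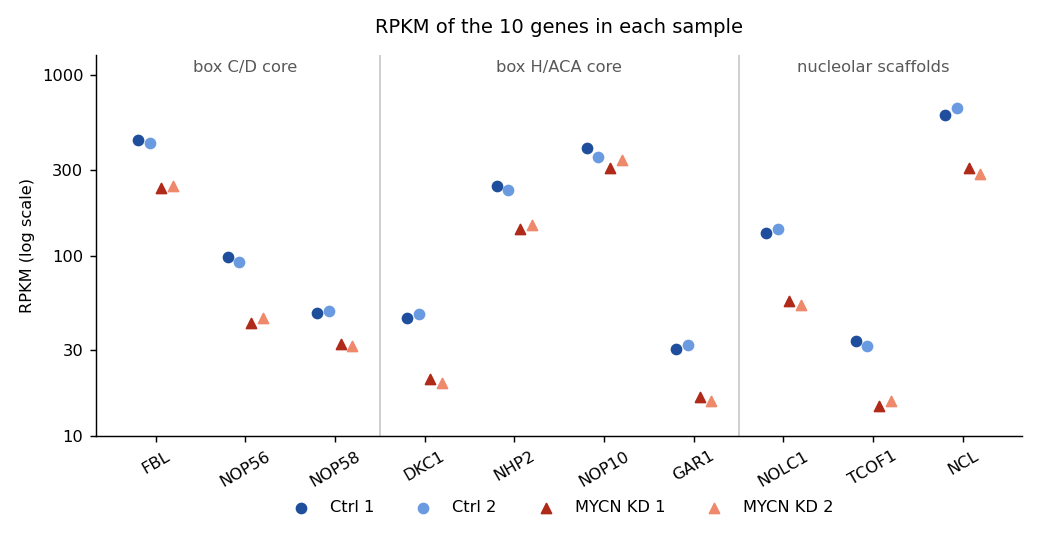
RPKM (log axis) of each of the 10 genes in the 2 Ctrl samples (circles) and the 2 MYCN KD samples (triangles), grouped by particle. Both triangles lie below both circles for every gene, by the narrowest margin for NOP10, where MYCN KD 2 had 341.2 RPKM and Ctrl 2 had 354.0.

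The replicates carry a limit that touches each of these values. Deviations of same-numbered samples from their group means were mirror images, with a correlation of −0.9845 across 11411 genes, which are not independent of each other. In each of the 10 genes, the sample number with the higher Ctrl value was the one with the lower MYCN KD value. The gap between replicates was also nearly the same share of the mean in both groups, for example 3.25% and 3.37% for FBL and 8.09% and 7.57% for NCL. The groups therefore do not give independent estimates of the spread.

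Box C/D core mRNAs fell unequally. FBL, the methyltransferase, had 437.0 and 423.0 RPKM in Ctrl against 236.4 and 244.5 in MYCN KD. Its mean went from 430.0 ± 9.89 to 240.4 ± 5.72 (SD, n = 2), a log2 fold change of −0.84 (95% interval −0.95 to −0.72, adjusted p = 0.00359, limma). FBL spans bases 40325098 to 40337019 of chromosome 19 (GRCh37, minus strand) with 9 exons. The groups were well apart, and MYCN KD kept 55.9% of the Ctrl level.

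NOP56 and NOP58 are paralogs that sit side by side on the guide RNA and hold FBL in place. NOP56 (chromosome 20, 2633278 to 2639039, plus strand, 12 exons) had 98.2 and 92.6 RPKM in Ctrl against 42.4 and 45.0 in MYCN KD. This gave a log2 fold change of −1.11 (SE 0.054, adjusted p = 0.00359 by limma), which left 45.8% of the Ctrl level. NOP58 (chromosome 2, 203130486 to 203168384, plus strand, 15 exons) had 47.8 and 49.6 RPKM in Ctrl against 32.4 and 31.4 in MYCN KD. That was the least fall among the 9 genes past the threshold, with a log2 fold change of −0.59 (SE 0.041, adjusted p = 0.00458 by limma). Neither pair of groups overlapped.

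The fourth C/D core protein, SNU13, binds the kink-turn of the guide RNA first and also serves the spliceosome. Although outside the chosen 10, it is needed to describe the particle, and the files list it under its older symbol NHP2L1. It had 246.5 and 234.9 RPKM in Ctrl against 141.2 and 148.2 in MYCN KD (log2 fold change −0.73, SE 0.047, adjusted p = 0.00434 by limma). All 4 core mRNAs of the C/D particle were therefore lower, with a median of −0.78.

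Among the C/D core mRNAs, the share of NOP56 went down and those of NOP58 and SNU13 went up. Summed over the 4 subunits, RPKM went from 814.8 ± 20.8 in Ctrl to 460.7 ± 11.8 in MYCN KD (SD, n = 2), 56.5% of the Ctrl level. FBL made up 52.8% ± 0.134 of the sum in Ctrl and 52.2% ± 0.0916 in MYCN KD. NOP56 went from 11.7% ± 0.186 to 9.49% ± 0.154, whereas NOP58 went from 5.98% ± 0.301 to 6.93% ± 0.334. SNU13 went from 29.5% ± 0.249 to 31.4% ± 0.271. None of the 4 shares overlapped between groups, though the shift of FBL was only −0.591 percentage points. With 2 samples per group, non-overlap is a description and not a test of the shares. As parts of the same sum the 4 shares depend on each other and are not separate results. These are shares of mRNA per length and say nothing of protein.

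H/ACA core mRNAs split into 3 that fell and 1 that did not pass the threshold. DKC1, the pseudouridine synthase, whose mutation causes dyskeratosis congenita, had 44.8 and 47.3 RPKM in Ctrl against 20.6 and 19.6 in MYCN KD. Its mean went from 46.0 ± 1.76 to 20.1 ± 0.707 (SD, n = 2), a log2 fold change of −1.15 (95% interval −1.30 to −1.01, adjusted p = 0.00359, limma). Only NOLC1 fell further among the 10 genes, and 43.7% of the Ctrl level was left. DKC1 spans bases 153991139 to 154005964 of chromosome X (plus strand) with 15 exons.

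GAR1 helps to load and release the substrate RNA, and NHP2 is a relative of SNU13 that binds the guide RNA within the particle. GAR1 (chromosome 4, 110736918 to 110745893, plus strand, 7 exons) had 30.4 and 32.0 RPKM in Ctrl against 16.4 and 15.6 in MYCN KD. This gave a log2 fold change of −0.92 (SE 0.049, adjusted p = 0.00371 by limma). NHP2 (chromosome 5, 177576464 to 177580886, minus strand, 4 exons) had 242.9 and 231.0 RPKM in Ctrl against 140.7 and 148.0 in MYCN KD. With a log2 fold change of −0.71 (SE 0.048, adjusted p = 0.00453 by limma) it was close to SNU13 (−0.73).

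NOP10, which binds the catalytic domain of DKC1, stood apart. It had 393.7 and 354.0 RPKM in Ctrl against 307.6 and 341.2 in MYCN KD. The mean went from 373.9 ± 28.1 to 324.4 ± 23.8 (SD, n = 2), a log2 fold change of −0.20 with a 95% interval of −0.46 to 0.05, so a fall of up to 0.46 is within the interval. Of all tested genes, 27.3% fell further. The replicates of this short gene (chromosome 15, 34633920 to 34635337, minus strand, 2 exons) were 10.6% of the mean apart in Ctrl and 10.4% in MYCN KD, which was the widest relative gap among the 10. The call was not firm, as the log2 fold change of NOP10 moved with the sample left out. It was −0.28 without Ctrl replicate 2 or without MYCN KD replicate 2. Without replicate 1 of either group it was −0.13. These fits leave 1 sample in a group.

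Because NOP10 fell least of the 10 genes, its ratio to each of the other 9 has to be higher in MYCN KD, and these ratios are given as a description with no test. The within-sample log2 ratio of NOP10 to the other gene was higher by 0.39 for NOP58, 0.51 for NHP2, 0.72 for GAR1, 0.95 for DKC1 and 1.11 for NOLC1.

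Within the H/ACA core, the NOP10 share of summed RPKM was 55.3% and 53.3% in Ctrl against 63.4% and 65.1% in MYCN KD, a shift of 9.91 percentage points. The other shares moved down, for DKC1 from 6.70% ± 0.584 to 4.00% ± 0.359, for NHP2 from 34.4% ± 0.460 to 28.6% ± 0.550 and for GAR1 from 4.54% ± 0.381 to 3.18% ± 0.278 (SD, n = 2). No share overlapped between groups, which again is a description and not a test. Shares of the same sum depend on each other, so the falls of the other shares go with the rise of NOP10 and are not separate results. The summed RPKM of the 4 subunits went from 688.0 ± 33.7 to 504.9 ± 27.7, so 73.4% was left, and NOP10 alone made up most of this sum.

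**Figure D2:**
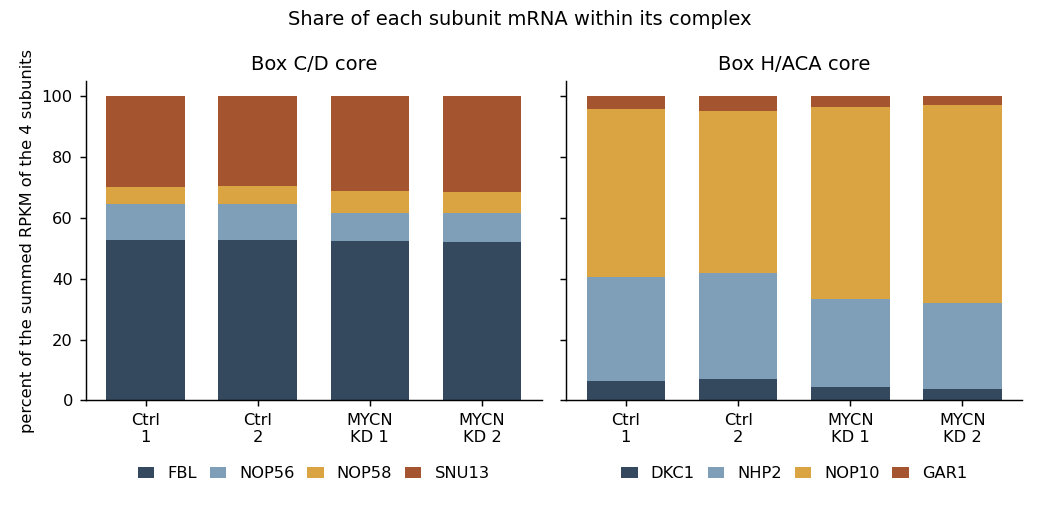
Stacked bars of the share of each subunit mRNA, in percent of the summed RPKM of the 4 subunits, for the box C/D core (left) and the box H/ACA core (right) in each sample. FBL kept about the same part of the C/D sum (52.8% and 52.2%), whereas NOP10 took a larger part of the H/ACA sum in both MYCN KD samples (63.4% and 65.1%).

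All 3 scaffold mRNAs fell. NOLC1, also known as Nopp140, shuttles between nucleolus and Cajal body and binds both kinds of snoRNP. It had 133.4 and 140.5 RPKM in Ctrl against 55.8 and 53.2 in MYCN KD, a mean of 136.9 ± 5.05 against 54.5 ± 1.83 (SD, n = 2). The log2 fold change of −1.31 (95% interval −1.46 to −1.17, adjusted p = 0.00359, limma) put it at rank 30 of 11411 genes by the size of the fall. NOLC1 spans bases 103912146 to 103923627 of chromosome 10 (plus strand) with 13 exons, and its RPKM in Ctrl was 2.51-fold that in MYCN KD.

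TCOF1 encodes treacle, which is mutated in Treacher Collins syndrome and is related to NOLC1 in its repeats. In Ctrl it had 33.4 and 31.4 RPKM, and in MYCN KD 14.7 and 15.6 (log2 fold change −1.05, SE 0.056, adjusted p = 0.00371 by limma). The gene spans bases 149737260 to 149779856 of chromosome 5 (plus strand) with 27 exons. NCL (nucleolin) was the most abundant of the 10 mRNAs in Ctrl, with 603.8 and 654.7 RPKM there and 304.6 and 282.4 in MYCN KD. This gave a log2 fold change of −1.10 (SE 0.067, adjusted p = 0.00422 by limma), and it spans bases 232318242 to 232329195 of chromosome 2 (minus strand) with 14 exons. Neither scaffold overlapped between groups.

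**Figure D3:**
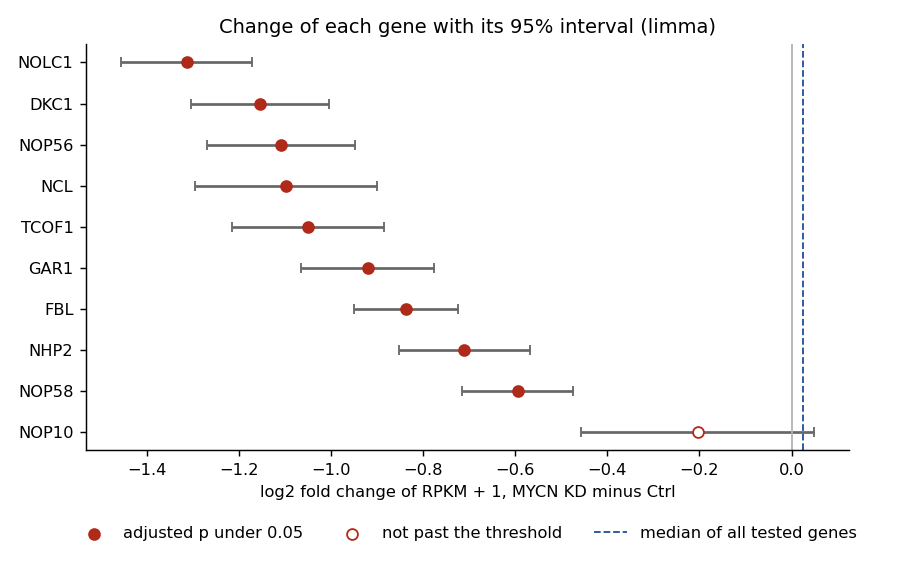
Log2 fold change of RPKM + 1, MYCN KD minus Ctrl, for each of the 10 genes with its 95% interval from limma; filled points are past an adjusted p of 0.05, and the dashed line is the median of all tested genes at 0.03. The 9 intervals of the other genes lie wholly below 0, from NOLC1 at −1.31 to NOP58 at −0.59, and that of NOP10 reaches from −0.46 to 0.05.

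Ordered by RPKM, the levels in Ctrl ran NCL, FBL, NOP10, NHP2, NOLC1, NOP56, NOP58, DKC1, TCOF1 and GAR1. TCOF1 and GAR1 overlapped there, at 33.4 and 31.4 against 30.4 and 32.0 RPKM. In MYCN KD, NOP10 came first, ahead of NCL and FBL, and GAR1 stood before TCOF1, while the other places were the same. By size of fall the order was NOLC1, DKC1, NOP56, NCL, TCOF1, GAR1, FBL, NHP2, NOP58 and NOP10. Of the 9 pairs of neighbours in that order, the within-sample log2 ratio did not overlap between groups for 3, namely NOLC1 with DKC1 (−0.16), FBL with NHP2 (−0.13) and NOP58 with NOP10 (−0.39). The other 6 pairs overlapped, so each step from DKC1 to FBL and that from NHP2 to NOP58 were within the spread between samples. With 2 samples per group, non-overlap gives an exact p of only 0.333 (permutation), so it does not show that the 3 pairs differ either.

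The proteins that surround the core particles were described by lists, each by its counts and its median beside those of all genes (22.8% lower, median 0.03). Of 10 snoRNP assembly factors, which bring the core proteins to the nascent guide RNA, 8 were lower and none higher (median −0.49). NUFIP1, a C/D assembly platform, went from 5.38 ± 0.685 to 2.35 ± 0.287 RPKM (SD, n = 2; log2 fold change −0.93, adjusted p = 0.0104 by limma). NAF1, which holds the place of GAR1 in the nascent H/ACA particle, went from 12.7 ± 0.183 to 6.62 ± 0.0805 RPKM (log2 fold change −0.85, adjusted p = 0.00359 by limma). RUVBL1, an ATPase of the chaperone complex, went from 205.7 ± 6.57 to 120.9 ± 3.89 RPKM (log2 fold change −0.76, adjusted p = 0.00414 by limma). ZNHIT6 and PIH1D1 were not past the threshold.

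Of 7 genes for later maturation and trafficking of the particles, only WRAP53 was lower (log2 fold change −0.33, adjusted p = 0.0256 by limma), with a list median of −0.15. WRAP53 brings small Cajal body RNAs and telomerase to the Cajal body. For the others, among them the cap hypermethylase TGS1, the export adaptor PHAX and the Cajal body protein COIL, values ran from −0.29 to 0.21. In this list 2 genes were lower past the threshold without Ctrl replicate 1 or without MYCN KD replicate 1.

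The H/ACA core also protects telomerase RNA. Of 6 genes of the telomerase RNP, 5 were tested and all 5 were lower (median −0.51). PINX1, a nucleolar inhibitor of telomerase, went from 26.0 ± 0.688 to 13.3 ± 0.321 RPKM (SD, n = 2; log2 fold change −0.92, adjusted p = 0.00359 by limma). TERC, the RNA template, went from 1.74 ± 0.109 to 0.921 ± 0.116 RPKM (log2 fold change −0.51, adjusted p = 0.0114 by limma). TERT, the reverse transcriptase, was at 0.166 ± 0.00298 and 0.0249 ± 0.00111 RPKM, below the minimum for testing. NAF1, WRAP53 and SHQ1 also stand in the lists above.

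U3 is a box C/D snoRNA that folds pre-rRNA instead of guiding methylation, and all 4 of its protein partners tested were lower (median −0.86). RRP9, the U3-specific protein, had 57.5 and 51.7 RPKM in Ctrl against 21.4 and 23.9 in MYCN KD (log2 fold change −1.23, adjusted p = 0.00471 by limma). IMP4 and MPHOSPH10 had log2 fold changes of −0.98 and −0.74, and IMP3 of −0.60 (adjusted p from 0.00365 to 0.0133 by limma). Among 11 tested nucleolar partner proteins, 6 were lower and none higher (median −0.54). GNL3 (nucleostemin) went from 33.5 ± 1.33 to 14.3 ± 0.528 RPKM (log2 fold change −1.17), NPM1 (nucleophosmin) from 366.0 ± 17.6 to 175.9 ± 7.90 (−1.05) and NPM3 from 60.3 ± 3.79 to 31.4 ± 1.96 (−0.92). Neither the catalytic subunits of casein kinase 2, CSNK2A1 and CSNK2A2, nor CUL3 and KBTBD8, the ubiquitin ligase that joins NOLC1 and TCOF1, passed the threshold (log2 fold changes from −0.17 to 0.15).

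Genes for related chemistry outside the core particles were listed as counterparts. Of 10 for rRNA modification by proteins other than the snoRNP cores, 8 were lower and none higher (median −0.41). They were led by the dimethyltransferase DIMT1 (log2 fold change −1.23), the acetyltransferase NAT10 (−0.95) and the cytosine methyltransferase NOP2 (−0.89). Of 11 tested stand-alone pseudouridine synthases, 7 were lower and none higher (median −0.56). PUS1, which acts on tRNA, went from 30.5 ± 2.91 to 11.8 ± 1.12 RPKM (SD, n = 2; log2 fold change −1.30, adjusted p = 0.00555 by limma), a fall of about the size of that of NOLC1. PUS7 was at −1.08 and RPUSD4, a mitochondrial enzyme, at −0.67. Falls were thus not limited to the enzyme of the guided particle.

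Counterparts of FBL were the one list with a gene past the threshold in the other direction. Of 9 methyltransferases, 6 were lower and 1 higher (median −0.22). This count was not firm, with 3 lower and 1 higher when the replicate number was added to the fit as a block. MRM1 and TARBP1 had log2 fold changes of −0.85 and −0.60, whereas FBLL1, the closest paralog of FBL, had 14.5 and 13.6 RPKM in Ctrl against 22.7 and 24.1 in MYCN KD. The rise of FBLL1 was 0.70 on the log2 scale (SE 0.057, adjusted p = 0.00568 by limma). FBLL1 stood at 3.32% and 3.22% of the FBL level in Ctrl and at 9.61% and 9.87% in MYCN KD, so FBL stayed the far more abundant mRNA. The list of structural relatives of NOP56, NOP58 and NHP2 had 6 of 6 lower (median −0.50). At its head were SNU13, SECISBP2 of selenoprotein synthesis (−0.66) and RPP38 of RNase P (−0.56). SNU13 was already counted in the C/D core above.

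**Figure D4:**
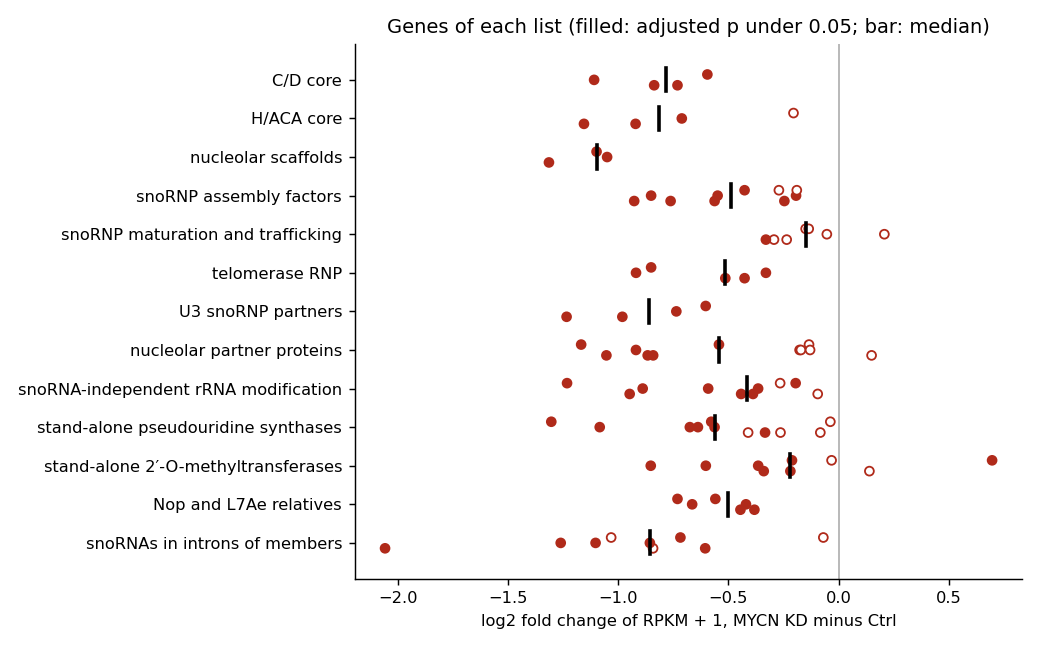
Log2 fold change of RPKM + 1 (MYCN KD minus Ctrl) of every tested gene in the 12 lists and in the list of snoRNAs within introns; filled points are past an adjusted p of 0.05 by limma and black bars are list medians. The lowest medians belong to the scaffolds (−1.10), and maturation and trafficking lies nearest 0 (−0.15), while FBLL1 at 0.70 is the 1 filled point to the right of 0.

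Guide RNAs hosted by these genes were few in reads. Of the 13 snoRNA genes in their introns, 10 had reads, 9 were tested, 6 were lower and none higher past the threshold. Lower calls made up 22.8% of all tested genes, and among all tested snoRNA and scaRNA genes there were 83 of 174. Summed over all 13, there were 118 and 113 reads in Ctrl and 44 and 47 in MYCN KD. Scaled to the sample totals, MYCN KD held 0.434 of the Ctrl reads (exact 95% interval 0.337 to 0.556, counting error only). Reads from a mature snoRNA and from the unspliced intron of its host cannot be told apart.

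By host, the 5 snoRNA genes of NOP56 had 56 and 54 reads in Ctrl against 19 and 20 in MYCN KD, a ratio of 0.391 (interval 0.264 to 0.568). SNORD110, printed above, had 16 and 18 reads against 9 and 8, a ratio of 0.551 (interval 0.289 to 1.01; adjusted p = 0.0206 by limma). SNORA51, also printed, had 8 and 10 against 4 and 4 (ratio 0.490, interval 0.184 to 1.18; adjusted p = 0.0243 by limma). The deepest fall was that of SNORD56, at 12 and 12 reads against 1 and 1 (ratio 0.0918, interval 0.0105 to 0.370; adjusted p = 0.00359 by limma), where equal counts of few reads make the error of the fit small. SNORD57 had 20 and 14 against 5 and 7 (ratio 0.389, interval 0.183 to 0.770; adjusted p = 0.0187 by limma). SNORD86 was listed at 0 in all 4 samples.

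The 3 snoRNA genes of NOP58 had 21 and 30 reads in Ctrl and 10 and 7 in MYCN KD (ratio 0.367, interval 0.199 to 0.647). SNORD11 had 9 and 12 against 3 and 2 (ratio 0.262, interval 0.0773 to 0.715; adjusted p = 0.0175 by limma). SNORD11B had 10 and 16 against 5 and 3 and did not pass (adjusted p = 0.0558 by limma), and SNORD70 had 2 reads in each sample. For NOP58, which fell least among the 9 mRNAs, the snoRNA reads were thus at 0.367 where the mRNA kept 65.5% of its Ctrl level, a mRNA value that lies just above the counting interval of the reads.

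In NCL, reads on 3 snoRNA genes came to 41 and 29 in Ctrl against 15 and 20 in MYCN KD (ratio 0.551, interval 0.356 to 0.838), and the mRNA kept 46.6%. SNORD20, printed above, had 31 and 19 reads against 9 and 14, a ratio of 0.507 (interval 0.295 to 0.846) that did not pass in the fit (adjusted p = 0.0788 by limma). SNORD82 had 4 and 4 against 1 and 1 (ratio 0.276, interval 0.0285 to 1.38; adjusted p = 0.00359 by limma), again with equal counts in each group. SNORA75 had 6 and 6 against 5 and 5 and did not pass. Both snoRNA genes of DKC1, SNORA36A and SNORA56, were listed at 0 in all samples, and the other 6 genes hosted none of the listed snoRNAs.

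**Figure D5:**
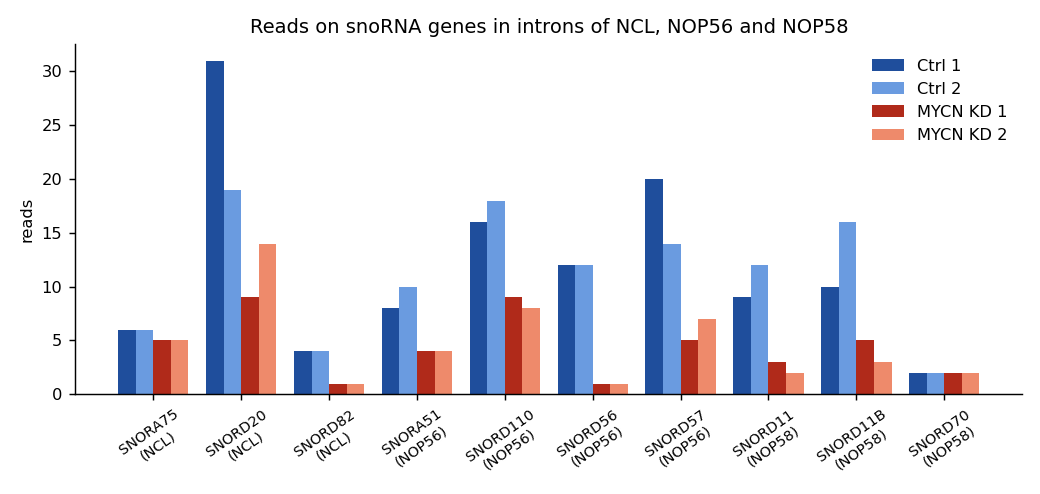
Recovered reads on each snoRNA gene with any read, in introns of NCL, NOP56 and NOP58, for the 2 Ctrl samples (blue) and the 2 MYCN KD samples (red). No bar exceeds 31 reads; SNORD56 drops from 12 and 12 to 1 and 1, whereas SNORD70 and SNORA75 are nearly level.

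Over the whole class, 395 snoRNA and scaRNA genes were listed, 281 had reads and 174 were tested, of which 83 were lower and 3 higher (median −0.56). Their summed RPKM was 1571 and 1521 in Ctrl against 921.7 and 964.2 in MYCN KD. Box C/D genes (SNORD) had 52 of 112 lower and 2 higher, with a median of −0.58. Box H/ACA genes (SNORA) had 26 of 55 lower and 1 higher, with a median of −0.55, and 5 of 7 scaRNA genes were lower. The medians of the classes were thus alike (−0.58 and −0.55).

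Promoter letters were read because MYCN binds E-boxes. RefSeq promoter windows on GRCh38.p14, 250 bases before to 50 after the start, were matched by symbol for 7 of the 10 genes (8 windows, 2 of them for GAR1), and NOP58, NOLC1 and TCOF1 had no entry. The E-box CACGTG, which reads the same on both strands, occurred in the windows of FBL, NOP10 and GAR1, that is 3 of 7 genes. It was held by 7.26% of all 35116 promoters and by 9.74% of those of tested genes. The related CACGCG, searched on both strands, was in the windows of FBL and NHP2, against 11.4% of all promoters and 18.0% of those of tested genes, and in FBL it did not overlap the E-box. Windows of NOP56, DKC1 and NCL held neither, which says nothing of binding there or elsewhere.

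The stretches with an E-box are printed from 5′ to 3′ on the strand of the gene, with CACGTG in capitals. In FBL it begins at base 7 of the transcript, and in the second window of GAR1 at base 32. NOP10, whose mRNA did not pass the threshold, holds it 2 times, beginning 170 and 11 bases before the start.
FBL, chr19:39846350-39846499, minus strand: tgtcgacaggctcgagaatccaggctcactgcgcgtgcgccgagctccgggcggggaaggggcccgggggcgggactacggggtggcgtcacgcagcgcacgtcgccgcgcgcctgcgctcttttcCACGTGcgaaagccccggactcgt
NOP10, chr15:34343107-34343326, minus strand: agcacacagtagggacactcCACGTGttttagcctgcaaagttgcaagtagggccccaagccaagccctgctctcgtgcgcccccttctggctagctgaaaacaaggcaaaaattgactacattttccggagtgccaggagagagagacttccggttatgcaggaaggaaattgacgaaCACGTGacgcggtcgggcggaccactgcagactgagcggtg
GAR1, chr4:109815781-109815810, plus strand: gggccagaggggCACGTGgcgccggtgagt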

How the data were processed

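Total RNA of 2 Ctrl and 2 MYCN KD samples of BE(2)C cells had been sequenced. Per the labels, the submitters' processing notes and the paper's methods, the authors aligned to hg19 (HISAT2 2.1.0), assigned reads to RefSeq genes (featureCounts), normalized counts (DESeq2, with RUVSeq against unwanted variation) and deposited the resulting RPKM, 1 file per sample. The variant of RUVSeq, the number of factors and whether counting used strand are not given in the sources used here. Reads were recovered from RPKM through the known lengths of small RNA genes. For 19906 of 19908 genes above 0 (99.99%) they came out whole within 0.002, with totals of 34142988, 31976939, 29055819 and 30941778. Since the paper computed RPKM from counts normalized by RUVSeq, the recovered reads of each gene are normalized numbers. Whether the totals are of normalized or of mapped reads was not tested. Intervals and ratios of reads take these numbers as plain counts and cover counting error only.

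Values were analysed as log2(RPKM + 1), a scale on which changes of low genes are understated, for 11411 genes whose mean RPKM reached 1 or more. Limma 3.58.1 in R 4.3.3 (lmFit, eBayes with a trend, no block, two-sided) was fitted over all of them, and p-values were adjusted by Benjamini-Hochberg (threshold 0.05). Lists were counted only, without a set test. The members, lists and tests were chosen with earlier results of these data known. Named were all 10 members, MYCN, SNU13, the 3 largest changes past the threshold in each list (all genes of lists of up to 4) and every hosted snoRNA with reads, and further list genes were named after their values were seen. Gene positions came from GENCODE release 44 lifted to GRCh37 (canonical transcripts), snoRNA sequences from the GRCh37 genome where the annotated length equalled that behind the RPKM, and promoters from RefSeq (GRCh38.p14). Other settings were a pseudocount of 0.1, no filter or a mean RPKM of at least 5, rescaling to 1 total, quantile normalization, no trend, a replicate block and each sample left out. After seeing the data, a crossed block and voom (limma) on the recovered reads were added. Tables were made in Python 3.11.15 with pandas 2.3.3 and numpy 2.4.6, exact tests with scipy 1.17.1 and plots with matplotlib 3.10.9.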

Additional observations from a re-analysis of the deposited data

How the results depend on the processing

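Across 13 other settings, 2 of them chosen after seeing the data, the 9 genes past the threshold kept their direction. Their log2 fold changes ran from −1.35 to −0.54. In the fits with 2 samples per group they passed throughout, with a highest adjusted p of 0.00891 (NHP2 with no filter on low values, limma). The settings refit the same 4 samples, and the 9 genes were picked by the main fit, so these passes are no independent support. NOP10 was lower in all 13 settings (−0.28 to −0.09). Over samples left out its range was −0.28 to −0.13, with −0.28 without Ctrl replicate 2 and −0.28 without MYCN KD replicate 2. Among fits with 2 samples per group it passed only in the crossed block (−0.20). There 5262 genes were lower and 5910 higher of 11411, so that pass says little of NOP10. The median of the 10 genes was −1.03 with a pseudocount of 0.1, −0.93 after rescaling, −0.93 after quantile normalization, −1.03 with voom, and −0.98 to −0.96 over samples left out. With a mean RPKM of at least 5, 7859 genes were tested, of which 2106 were lower and 1868 higher, against 2599 lower and 2890 higher of 11411. Quantile normalization moved the share of FBL by −1.28 and of SNU13 by 2.58 percentage points.

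The replicate numbers were not used to pair the samples in the main fit, and same-numbered deviations correlated at −0.9845. Whether same-numbered samples were handled together cannot be read from these normalized values. The replicate block gave 1851 genes lower and 2077 higher, with 9 of the 10 members lower and an adjusted p of 0.226 for NOP10 (limma). Under it 0 of the maturation and trafficking genes and 3 of the methyltransferases were lower. The crossed replicate block gave 5262 lower and 5910 higher. With 2 samples per group whose deviations mirror each other, the spread, and thus every p, is limited in these data, and the cause of the mirroring was not tested. Reads on snoRNA genes were the shallowest values, and 1 hosted snoRNA was lower past the threshold among genes above a mean RPKM of 5.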
